A study of Homo sapiens with 8 samples.

Results

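Integrins are the cell-surface receptors that tie epithelial cells to the extracellular matrix, and the 8 genes ITGA2, ITGA3, ITGA5, ITGAV, ITGB1, ITGB5, ITGB6 and ITGB8 were described here in MCF10A cells depleted of LATS1 and LATS2, of p53, or of all of them. The members were taken by gene symbol, from a list chosen with earlier results of these data known. Of the 29991 entries of the expression table, 8 carried one of these symbols, each symbol once. MCF10A is an immortalised, non-tumorigenic human breast epithelial line with basal features. The groups were cells given siRNA against LATS1, LATS2 and p53 together (siLATS_p53), against LATS1 and LATS2 (siLATS), against p53 (sip53), or a control siRNA (siControl), and every group had been transfected. Each of these 4 groups had 2 libraries of polyadenylated RNA, numbered for 2 independent batches of cells. The experiment rests on 1 cell line and on transient depletion, and the siRNA sequences and the time after transfection were not used here.

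An integrin is a dimer of an alpha and a beta subunit, and the pair decides which matrix protein it binds. The beta-1 subunit (ITGB1) joins many alpha subunits: with alpha-2 (ITGA2) it binds collagen, with alpha-5 (ITGA5) the RGD site of fibronectin, and with alpha-3 (ITGA3) chiefly the epithelial laminin of the basement membrane, so that ITGA3 is not a collagen or fibronectin receptor in the strict sense. The alpha-V subunit (ITGAV) joins beta-1, beta-3, beta-5, beta-6 or beta-8 and binds fibronectin, vitronectin and the latency peptide that keeps TGF-beta inactive. LATS1 and LATS2 are Hippo pathway kinases that restrain the transcriptional coactivators YAP and TAZ, which act through TEAD factors, and p53 is a stress-responsive transcription factor.

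Levels are the deposited log2 expression values, on which 5 was the lowest value. All 8 members were above it in all 8 libraries, and all were among the 12315 entries tested. LATS1 lay between 7.90 and 8.10 in the 4 libraries with LATS siRNA and between 9.54 and 9.94 in the other 4, and LATS2 lay between 8.63 and 8.81 against 9.74 and 10.22. The 6 basal mammary epithelial markers (KRT5, KRT14, KRT17, TP63, CDH3 and EGFR) were above the lowest value, and their summed linear signal was 118000 to 138000 in siLATS_p53, 97100 to 129000 in siLATS, 118000 to 156000 in sip53 and 115000 to 165000 in siControl. Of the markers of other cells, 4 of 5 fibroblast, 3 of 4 blood, 3 of 4 endothelial and 1 of 4 luminal hormone-responsive genes were at the lowest value in all 8 libraries. The luminal genes above it were ESR1, GATA3 and FOXA1, and the blood gene was CD14. The endothelial gene KDR was at 6.13 and 5.47 in siLATS_p53 and at 5 in the other groups. The exception among fibroblast markers was DCN, which is taken up below. The summed linear signal was 23.7 to 24.9 M per library. The low values were spaced by about 0.64 to 2.2 linear units; if that spacing stands for a read, the lowest member in a library rested on 864 to 2982 reads, although reads could not be recovered. These are bulk samples, in which fewer cells of a type and less RNA per cell cannot be told apart.

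The 8 genes did not move together. ITGA2, the collagen-binding subunit, was lowest when LATS1/2 and p53 were depleted together, and ITGB8 was low and ITGA3 high after LATS1/2 depletion alone. ITGB5 varied least, and ITGAV, ITGB1, ITGA5 and ITGB6 differed between groups by about as much as between the batches of cells. Every group had both batches, and a fit with a batch term, given below, passed differences in ITGAV, ITGB1, ITGA5 and ITGB6. In the plot of levels by library, the spread from the highest to the lowest of the 8 libraries was 2.80-fold for ITGA2, 2.01-fold for ITGAV and 1.15-fold for ITGB5, with the other 5 members between 1.70-fold and 1.93-fold.

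**Figure D1:**
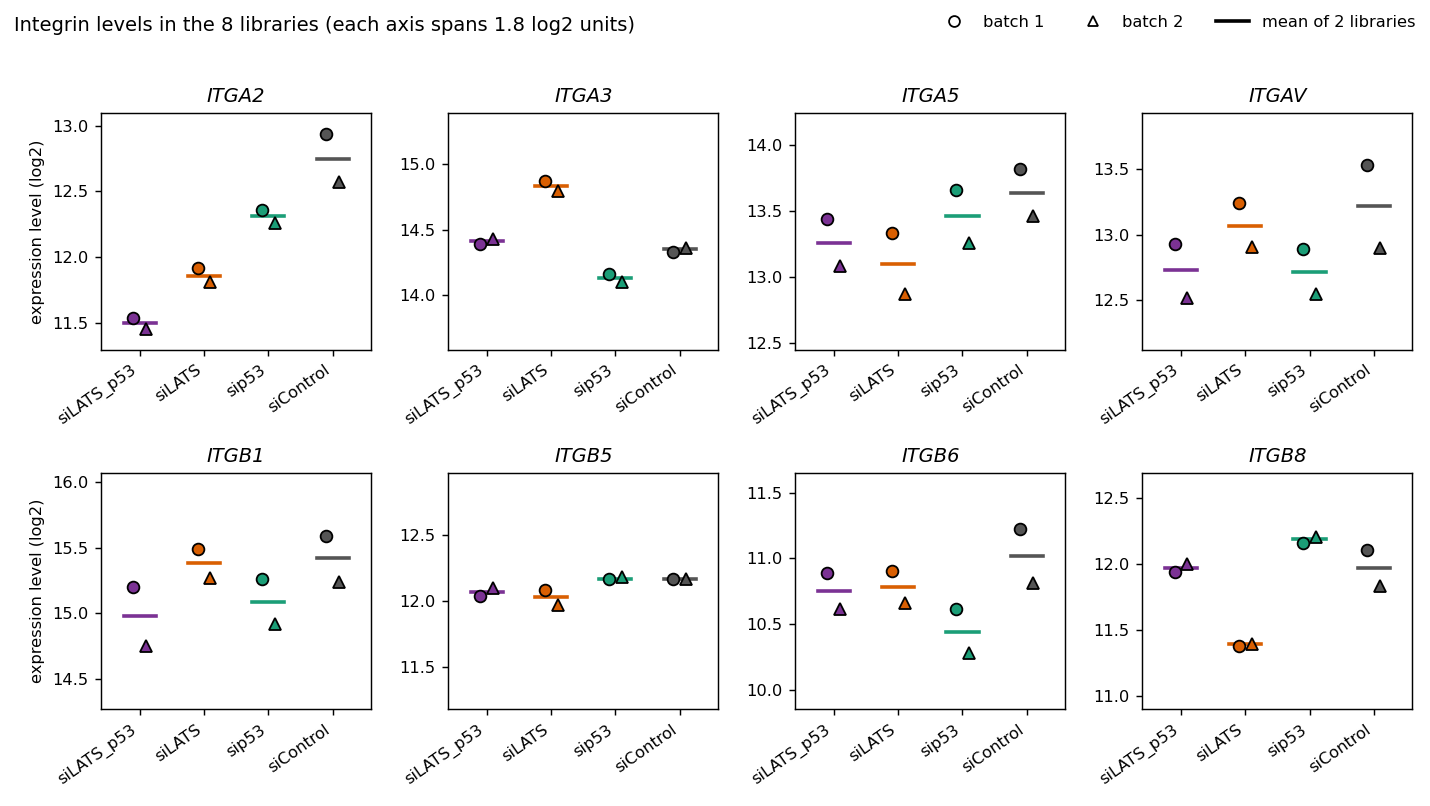
Expression level (log2, vertical axis) of the 8 integrin genes in each library, by siRNA group; circles are batch 1, triangles batch 2 and bars the mean of 2 libraries, and each axis spans 1.8 log2 units. ITGA2 steps down to 11.54 and 11.45 in siLATS_p53, ITGB8 is near 11.4 only in siLATS, and the circles of ITGA5, ITGAV, ITGB1 and ITGB6 lie above the triangles in every group.

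Promoter windows are shown for ITGA2, the member with the largest difference, and for ITGA5, ITGB1 and ITGB6, whose windows held a searched motif. They come from RefSeq on build GRCh38.p14, whereas the expression values were made on hg19, and run from 250 bases before to 50 bases after the first listed start, 5′ to 3′ on the gene's strand. Windows of 7 of the 8 members were in the table, all but that of ITGA3. ITGA2 lies at chr5:52989102-52989401 on the plus strand, ITGA5 at chr12:54419217-54419516 on the minus strand, ITGB1 at chr10:32958181-32958480 on the minus strand and ITGB6 at chr2:160200223-160200522 on the minus strand. Capitals mark matches to GGAATG (the core bound by TEAD factors), TGANTCA (AP-1) or CAGGTG (an E-box of the kind bound by SNAI2), searched on both strands.
ITGA2: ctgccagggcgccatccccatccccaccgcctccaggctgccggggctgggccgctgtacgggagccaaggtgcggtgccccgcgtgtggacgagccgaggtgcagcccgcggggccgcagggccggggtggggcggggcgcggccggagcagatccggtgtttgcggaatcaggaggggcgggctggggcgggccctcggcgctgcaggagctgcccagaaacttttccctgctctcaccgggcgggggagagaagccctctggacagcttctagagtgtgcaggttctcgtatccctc
ITGA5: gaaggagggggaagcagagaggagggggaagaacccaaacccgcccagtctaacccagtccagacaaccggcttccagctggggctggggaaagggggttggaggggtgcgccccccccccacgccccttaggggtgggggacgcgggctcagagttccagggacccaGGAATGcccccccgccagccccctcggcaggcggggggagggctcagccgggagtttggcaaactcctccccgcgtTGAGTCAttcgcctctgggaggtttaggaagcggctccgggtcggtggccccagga
ITGB1: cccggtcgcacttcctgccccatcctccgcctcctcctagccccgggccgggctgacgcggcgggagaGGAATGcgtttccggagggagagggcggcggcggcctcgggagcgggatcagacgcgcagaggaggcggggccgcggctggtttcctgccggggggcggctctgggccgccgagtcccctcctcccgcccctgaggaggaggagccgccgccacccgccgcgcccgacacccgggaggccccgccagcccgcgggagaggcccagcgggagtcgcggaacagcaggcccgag
ITGB6: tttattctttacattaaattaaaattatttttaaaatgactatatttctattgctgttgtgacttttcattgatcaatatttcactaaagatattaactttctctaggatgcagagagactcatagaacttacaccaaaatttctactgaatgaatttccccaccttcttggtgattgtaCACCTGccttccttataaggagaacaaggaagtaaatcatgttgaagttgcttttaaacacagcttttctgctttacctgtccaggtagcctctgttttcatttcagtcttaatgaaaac
The ITGA5 window held a GGAATG at position -82 and a TGANTCA match at position -6 from the start. The ITGB1 window held a GGAATG at position -182. The ITGB6 window held an E-box on the reverse strand at position -70, and the windows of ITGA2, ITGAV, ITGB5 and ITGB8 held none of the 3 motifs. ITGAV, ITGB1 and ITGB5 had 2, 2 and 3 listed starts, of which only the first was searched. Over the first window of 27305 genes, 14% held GGAATG, 7.76% TGANTCA and 20.6% CAGGTG, against 2, 1 and 1 of the 7 members. The matches did not overlap each other. A match describes the letters and not binding.

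ITGA2 had the largest log2 difference among the members, and it was lower wherever LATS1/2 were depleted. Its level was 11.54 and 11.45 in siLATS_p53, 11.92 and 11.81 in siLATS, 12.36 and 12.26 in sip53, and 12.94 and 12.57 in siControl. No group overlapped another, and the order from low to high was siLATS_p53, siLATS, sip53 and siControl. ITGA2 was 2.39-fold lower in siLATS_p53 than in siControl (log2 difference -1.26 ± 0.13, SE; adjusted p = 0.00206), 1.85-fold lower in siLATS than in siControl (-0.89 ± 0.13; adjusted p = 0.00994) and 1.75-fold lower in siLATS_p53 than in sip53 (-0.81 ± 0.13; adjusted p = 0.0182). The 2 comparisons of p53 siRNA were smaller, at -0.45 ± 0.13 for sip53 against siControl (adjusted p = 0.101) and -0.37 ± 0.13 for siLATS_p53 against siLATS (adjusted p = 0.0915). A fit that takes the batch of cells as a block, called the blocked fit below, passed both, at adjusted p = 0.00093 and adjusted p = 0.0019. In both, the tested libraries lay below their controls within each batch, by 0.58 and 0.32 in sip53 against siControl and by 0.38 and 0.36 in siLATS_p53 against siLATS.

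The effect of LATS siRNA on ITGA2 had like sizes with and without p53 siRNA, at -0.81 and -0.81 in the 2 batches for siLATS_p53 against sip53 and at -1.02 and -0.77 for siLATS against siControl. The interaction, which is the difference between these effects, was 0.08 ± 0.18 (adjusted p = 0.949). The fall in siLATS_p53 against siControl passed whichever library was left out, with adjusted p-values from 0.0046 to 0.0234. Leaving out siLATS replicate 1 (-0.95, adjusted p = 0.0646) or siLATS replicate 2 (-0.83, adjusted p = 0.0695) ended the call in siLATS against siControl. That in siLATS_p53 against sip53 was lost without any 1 of its own 4 libraries: sip53 replicate 1 (-0.76, adjusted p = 0.107), sip53 replicate 2 (-0.86, 0.0953), siLATS_p53 replicate 1 (-0.86, 0.0924) or siLATS_p53 replicate 2 (-0.76, 0.126). The difference of siLATS_p53 from siLATS passed without siControl replicate 1 (adjusted p = 0.0386) or siControl replicate 2 (0.039), and after rescaling all libraries by medians of ratios (-0.52, adjusted p = 0.0409).

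ITGA5, the alpha subunit of the main fibronectin receptor, had a level of 13.44 and 13.08 in siLATS_p53, 13.33 and 12.87 in siLATS, 13.66 and 13.26 in sip53, and 13.82 and 13.46 in siControl. In every group the batch 1 library was higher, by 0.35 to 0.47, and siLATS was the lowest group in each batch. The log2 difference of siLATS from siControl was -0.54 ± 0.22 (adjusted p = 0.179), and it passed in the blocked fit, where its SE was 0.06 (adjusted p = 3.56e-05). The blocked fit also passed siLATS_p53 against siControl (-0.37 ± 0.06, adjusted p = 0.000447; unblocked 0.297) and siLATS_p53 against sip53 (-0.20 ± 0.06, adjusted p = 0.0434; unblocked 0.699). The differences of sip53 from siControl and of siLATS_p53 from siLATS were -0.18 and 0.16, with adjusted p-values of 0.0569 and 0.055 in the blocked fit. After rescaling by medians of ratios they were -0.24 and 0.01, with adjusted p = 0.0151 and adjusted p = 0.952 in the blocked fit.

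FN1, which encodes fibronectin itself, was lower wherever p53 siRNA was given. Its level was 13.89 and 14.32 in siLATS_p53, 15.50 and 15.89 in siLATS, 13.41 and 13.53 in sip53, and 14.97 and 15.55 in siControl. It fell in both groups, with log2 differences of -1.79 ± 0.23 in sip53 against siControl (adjusted p = 0.0146) and -1.60 ± 0.23 in siLATS_p53 against siLATS (adjusted p = 0.00807), which are the comparisons in which ITGA5 did not pass in either fit. These calls of FN1 passed in 5 of the 8 fits that leave out a library (largest adjusted p = 0.109 and 0.0671).

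ITGA3, the subunit that binds epithelial laminin, was the only member called higher in siLATS than in siControl. Its level was 14.39 and 14.43 in siLATS_p53, 14.87 and 14.79 in siLATS, 14.16 and 14.10 in sip53, and 14.33 and 14.36 in siControl. The libraries of each group lay within 0.08 of each other, no groups overlapped, and the order from low to high was sip53, siControl, siLATS_p53 and siLATS. ITGA3 was 1.40-fold higher in siLATS than in siControl (0.48 ± 0.09, adjusted p = 0.0223) and 1.34-fold lower in siLATS_p53 than in siLATS (-0.42 ± 0.09, adjusted p = 0.0223). In siLATS_p53 against siControl it differed by 0.06 ± 0.09 (adjusted p = 0.683; 0.506 with the block). In the blocked fit it also fell in sip53 against siControl (-0.22 ± 0.07, adjusted p = 0.0294; unblocked 0.208) and rose in siLATS_p53 against sip53 (0.28 ± 0.07, adjusted p = 0.00883; unblocked 0.146).

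Both calls of ITGA3 were near the threshold. The rise in siLATS was lost without siControl replicate 1 (adjusted p = 0.0925), siControl replicate 2 (0.0749), siLATS replicate 1 (0.163), siLATS replicate 2 (0.0866), sip53 replicate 1 (0.0526) or sip53 replicate 2 (0.0541), and its size stayed between 0.44 and 0.52. The fall in siLATS_p53 against siLATS was lost without siLATS replicate 1 (adjusted p = 0.125), siLATS replicate 2 (0.0856), sip53 replicate 2 (0.051), siLATS_p53 replicate 1 (0.115) or siLATS_p53 replicate 2 (0.0649), with sizes from -0.46 to -0.38. LAMA3 and LAMB3, which encode chains of epithelial laminin, differed from siControl by 0.01 ± 0.17 and -0.33 ± 0.18 in siLATS, where ITGA3 rose, and neither passed there (adjusted p = 0.99 and adjusted p = 0.302; LAMB3 fell in the blocked fit, at 0.0067).

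ITGB1, the shared beta subunit, had a level of 15.20 and 14.75 in siLATS_p53, 15.49 and 15.27 in siLATS, 15.26 and 14.92 in sip53, and 15.59 and 15.24 in siControl. The batch 1 library was the higher in each group, by 0.21 to 0.44, so that sip53 overlapped siControl while siLATS_p53 lay below it. Within each batch the groups with p53 siRNA were below the matching groups without it, by 0.33 and 0.32 for sip53 against siControl and by 0.29 and 0.52 for siLATS_p53 against siLATS. These differences, -0.33 ± 0.20 and -0.40 ± 0.20, had adjusted p = 0.402 and adjusted p = 0.211, and in the blocked fit 0.00642 and 0.00088. In siLATS_p53 against siControl the value was -0.44 ± 0.20 (adjusted p = 0.195; 0.000428 with the block). For LATS siRNA the differences were -0.04 ± 0.20 in siLATS against siControl and -0.11 ± 0.20 in siLATS_p53 against sip53, and neither passed in either fit.

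ITGAV, the alpha subunit shared by the TGF-beta-activating receptors, gave values much like those of ITGB1. Its level was 12.93 and 12.52 in siLATS_p53, 13.24 and 12.91 in siLATS, 12.89 and 12.55 in sip53, and 13.53 and 12.90 in siControl. The siControl libraries were farthest apart, at 0.63, against 0.33 to 0.41 in the other groups, and siControl replicate 2 was level with siLATS replicate 2. The sip53 and siControl libraries did not overlap (-0.49 ± 0.24, adjusted p = 0.287), while those of siLATS_p53 overlapped both siControl (-0.49 ± 0.24, adjusted p = 0.218) and siLATS (-0.35 ± 0.24, adjusted p = 0.355). All 3 passed in the blocked fit, at adjusted p = 0.000468, 0.000223 and 0.00291. LATS siRNA gave -0.14 ± 0.24 in siLATS against siControl (adjusted p = 0.773; 0.18 with the block) and 0.01 ± 0.24 in siLATS_p53 against sip53 (adjusted p = 0.999; 0.973 with the block).

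ITGB6, an epithelial partner of alpha-V that binds fibronectin and latent TGF-beta, had the lowest log2 levels of the members. They were 10.89 and 10.61 in siLATS_p53, 10.90 and 10.66 in siLATS, 10.61 and 10.28 in sip53, and 11.22 and 10.81 in siControl. The sip53 libraries were the lowest of their batch and lay below both siControl libraries, and siLATS_p53 and siLATS overlapped each other and siControl. The difference of sip53 from siControl was -0.57 ± 0.18 (adjusted p = 0.133; 0.000143 with the block). In the blocked fit ITGB6 also fell in siLATS (-0.24 ± 0.08, adjusted p = 0.0294; unblocked 0.474) and in siLATS_p53 (-0.27 ± 0.08, adjusted p = 0.0135; unblocked 0.373) against siControl, and rose in siLATS_p53 against sip53 (0.31 ± 0.08, adjusted p = 0.01; unblocked 0.434). With p53 siRNA, ITGB6 was higher after LATS siRNA (0.28 and 0.34 in the 2 batches), and without it lower (-0.33 and -0.15). The difference between these effects, the interaction, was 0.55 ± 0.26 (adjusted p = 0.749), and 0.55 ± 0.11 in the blocked fit (adjusted p = 0.0251). Rescaling by medians of ratios within the blocked fit ended the calls of ITGB6 in siLATS against siControl (-0.15, adjusted p = 0.142) and of the interaction (0.45, adjusted p = 0.0736).

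ITGB8, an alpha-V partner whose best-known ligand is latent TGF-beta, was low in 1 group. Its level was 11.94 and 12 in siLATS_p53, 11.38 and 11.39 in siLATS, 12.16 and 12.21 in sip53, and 12.11 and 11.83 in siControl. Both siLATS libraries lay below the other 6, siLATS_p53 overlapped siControl, and sip53 was highest. ITGB8 was 1.5-fold lower in siLATS than in siControl (-0.58 ± 0.10, adjusted p = 0.0217) and 1.5-fold higher in siLATS_p53 than in siLATS (0.58 ± 0.10, adjusted p = 0.0143). Against siControl, siLATS_p53 differed by 0.00 ± 0.10 and sip53 by 0.22 ± 0.10 (adjusted p = 0.275; 0.0724 with the block), and siLATS_p53 differed from sip53 by -0.22 ± 0.10 (adjusted p = 0.327; 0.083 with the block). The interaction was 0.37 ± 0.15 (adjusted p = 0.749; 0.124 with the block).

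The fall of ITGB8 in siLATS was lost without siControl replicate 1 (-0.44, adjusted p = 0.0713), siLATS replicate 1 (-0.57, 0.143) or siLATS replicate 2 (-0.59, 0.0992), and the rise in siLATS_p53 against siLATS without siLATS replicate 1 (0.57, adjusted p = 0.0882), siLATS replicate 2 (0.59, 0.0779), siLATS_p53 replicate 1 (0.62, 0.0731) or siLATS_p53 replicate 2 (0.55, 0.0579). The median of all tested genes was 0.15 higher in siLATS_p53 than in siLATS, and after rescaling to a median near 0 the rise of ITGB8 was 0.43 (adjusted p = 0.0507).

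ITGB5, the vitronectin-binding partner of alpha-V, had a level of 12.04 and 12.10 in siLATS_p53, 12.08 and 11.97 in siLATS, 12.17 and 12.18 in sip53, and 12.17 and 12.17 in siControl. The groups with LATS siRNA lay slightly below those without it. Its log2 differences ran from -0.15 ± 0.08 in siLATS against siControl (adjusted p = 0.272; 0.112 with the block) to 0.05 ± 0.08 in siLATS_p53 against siLATS, and none passed in either fit. The gene of vitronectin (VTN) was at the lowest value in all libraries.

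**Figure D2:**
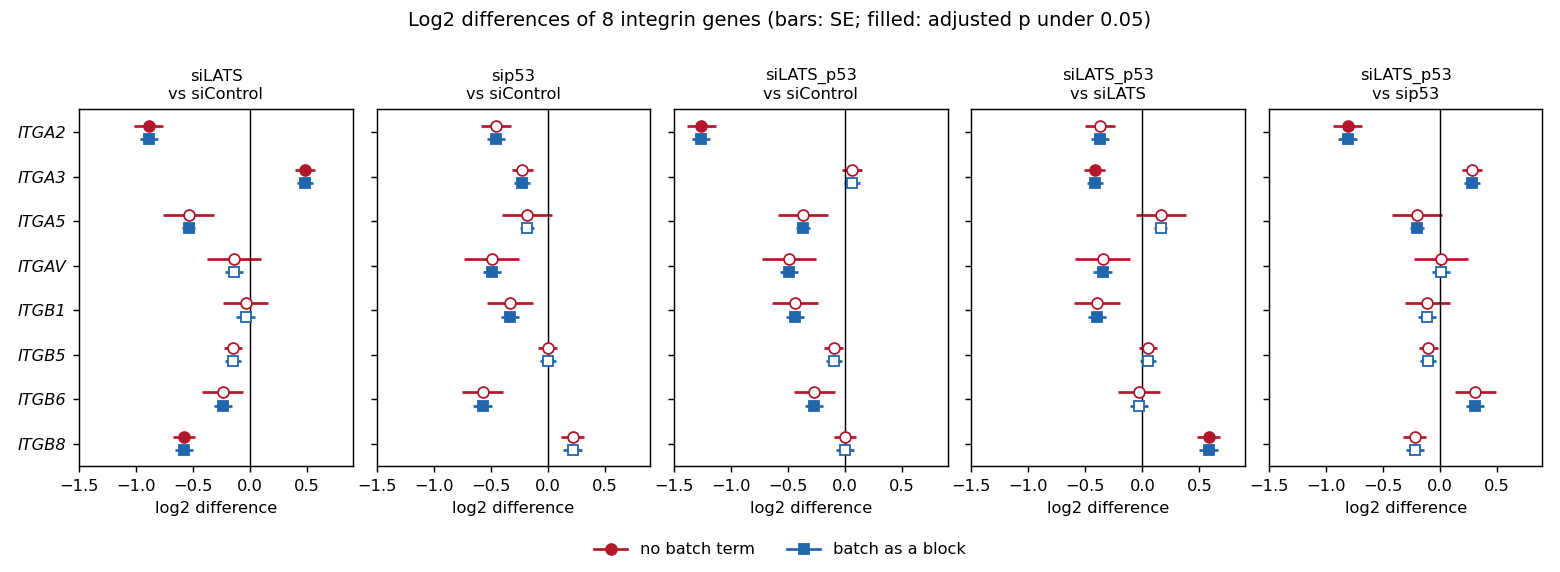
Log2 difference (horizontal axis) of the 8 integrin genes in 5 comparisons, with SE as bars; red circles are the fit without a batch term, blue squares the fit with the batch of cells as a block, and filled marks have an adjusted p under 0.05. ITGA2 is filled red at -1.26, -0.89 and -0.81, and the blue bars of ITGA5, ITGAV, ITGB1 and ITGB6 are shorter than the red ones at the same value.

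In the fit without a batch term the calls over the members were few and went both ways. In siLATS against siControl 1 of 8 rose (ITGA3) and 2 fell (ITGA2 and ITGB8), where 7.7% of all tested genes were called, 2.81% higher and 4.89% lower. In siLATS_p53 against siControl 1 fell (ITGA2), where 14.6% of all genes were called, 9.07% higher and 5.48% lower. In siLATS_p53 against siLATS 1 rose (ITGB8) and 1 fell (ITGA3), where 14.5% were called, 11.3% higher and 3.22% lower. In siLATS_p53 against sip53 1 fell (ITGA2), where 3.66% were called, 2.54% higher and 1.12% lower. In sip53 against siControl this fit called 0 of 8, where 3.86% were called, 1.76% higher and 2.1% lower. There, 3 members and 21.4% of all genes had an unadjusted p under 0.05. The comparisons share libraries, so that their counts are not independent. The share of calls that were higher depended on the scaling: after rescaling by medians of ratios it was 55.6% in place of 36.5% in siLATS against siControl, 26.2% in place of 45.7% in sip53 against siControl, 47.4% in place of 62.3% in siLATS_p53 against siControl and 45.8% in place of 77.9% in siLATS_p53 against siLATS.

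In the blocked fit more members and more genes passed. In siLATS against siControl 1 member rose and 4 fell, with 32% of all genes called, 10.5% higher and 21.4% lower. In sip53 against siControl 0 rose and 5 fell (ITGA2, ITGA3, ITGAV, ITGB1 and ITGB6), with 26% called, 16% higher and 10% lower. In siLATS_p53 against siControl 0 rose and 5 fell (ITGA2, ITGA5, ITGAV, ITGB1 and ITGB6), with 39.2% called, 25.5% higher and 13.8% lower. In siLATS_p53 against siLATS 1 rose and 4 fell, with 43.5% called, 33.8% higher and 9.72% lower. In siLATS_p53 against sip53 2 rose and 2 fell, with 22.1% called, 12.7% higher and 9.42% lower. The median log2 difference of the members was -0.32 in siLATS_p53, -0.27 in sip53 and -0.19 in siLATS, each against siControl, beside 0.08, 0.06 and -0.07 over all tested genes. For the interaction limma called 0 of 8 members and 0% of all genes, with 1 member and 807 genes at an unadjusted p under 0.05; in the blocked fit 1 member rose (ITGB6) and 2.03% of all genes were called, 1.75% higher and 0.276% lower.

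ITGA2, ITGA5, ITGAV, ITGB1 and ITGB6 were higher in the batch 1 library of all 4 groups. The excess was 0.33 to 0.63 for ITGAV, 0.35 to 0.47 for ITGA5, 0.24 to 0.41 for ITGB6, 0.21 to 0.44 for ITGB1 and 0.09 to 0.36 for ITGA2, while ITGA3, ITGB5 and ITGB8 were higher in batch 1 in 2, 1 and 1 of the groups. An excess over 0.2 in all 4 groups, which ITGA5, ITGAV, ITGB1 and ITGB6 had, was present in 6.8% of all tested genes. The fibroblast marker DCN moved the same way: it was 8.39 and 5 in siLATS_p53, 7.87 and 5 in siLATS, 9.53 and 6.14 in sip53, and 9.86 and 7.02 in siControl, batch 1 first, while LUM, PDGFRB, THY1 and COL1A2 were at the lowest value throughout. Summed on the linear scale, the 5 fibroblast markers ran from 0 to 335 in siLATS_p53, 0 to 234 in siLATS, 70.5 to 739 in sip53 and 130 to 929 in siControl. Against siControl, DCN differed by -1.75 ± 1.64 in siLATS_p53, -2.01 ± 1.64 in siLATS and -0.60 ± 1.64 in sip53 (adjusted p = 0.52, 0.5 and 0.88), and it fell in all 3 in the blocked fit (adjusted p = 2.66e-06, 1.24e-06 and 0.0182), as ITGA2 and ITGB6 did. The part of DCN-expressing cells in the integrin levels was not tested.

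Some basal markers of the line itself also moved in comparisons in which integrin genes did. In siLATS_p53 against siControl limma called 1 of the 6, TP63, and 1 rose and 2 fell in the blocked fit. In that fit 25.5% of all genes were called higher and 13.8% lower. The means in siLATS_p53 and siControl were 14.08 and 13.82 for CDH3, 14.71 and 14.66 for KRT17, and 13.32 and 13.4 for KRT14. They were 15.9 and 16.1 for KRT5, and 13.41 and 13.72 for EGFR. TP63, which encodes the basal regulator p63, had a level of 9.89 and 10.25 in siLATS_p53, 10.43 and 10.74 in siLATS, 10.29 and 10.51 in sip53, and 10.86 and 11.12 in siControl. It fell in siLATS_p53 against siControl (-0.92 ± 0.17, adjusted p = 0.0146), where ITGA2, ITGA6 and ITGB4 fell, and that call was lost without siControl replicate 2 or siLATS_p53 replicate 1 (largest adjusted p = 0.0817). CDH3, which encodes P-cadherin, rose in siLATS_p53 against sip53 (0.54 ± 0.09, adjusted p = 0.0249), a call kept in 2 of the 8 fits that leave out a library. In siLATS against siControl limma called 0 of the 6 basal markers, with 2 at an unadjusted p under 0.05, beside 25.2% of all tested genes. The median log2 difference over the 6 was -0.35. In the blocked fit 1 rose and 5 fell there, with 10.5% of all genes called higher and 21.4% lower. In that fit, against siControl, 2 of the 3 tested luminal markers rose in siLATS_p53 and 2 of the 3 in siLATS. CD14 rose in siLATS_p53 and in sip53, and the endothelial marker KDR in siLATS_p53. The blocked fit called 25.5% of all genes higher in siLATS_p53 and 16% in sip53, each against siControl. The means in siLATS_p53, siLATS and siControl were 5.35, 6 and 5.07 for ESR1, which is near the lowest value. They were 8.08, 8.08 and 7.65 for GATA3, and 7.88, 7.62 and 7.44 for FOXA1. The part of the basal, luminal, blood or endothelial markers in the integrin differences was not tested.

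**Figure D3:**
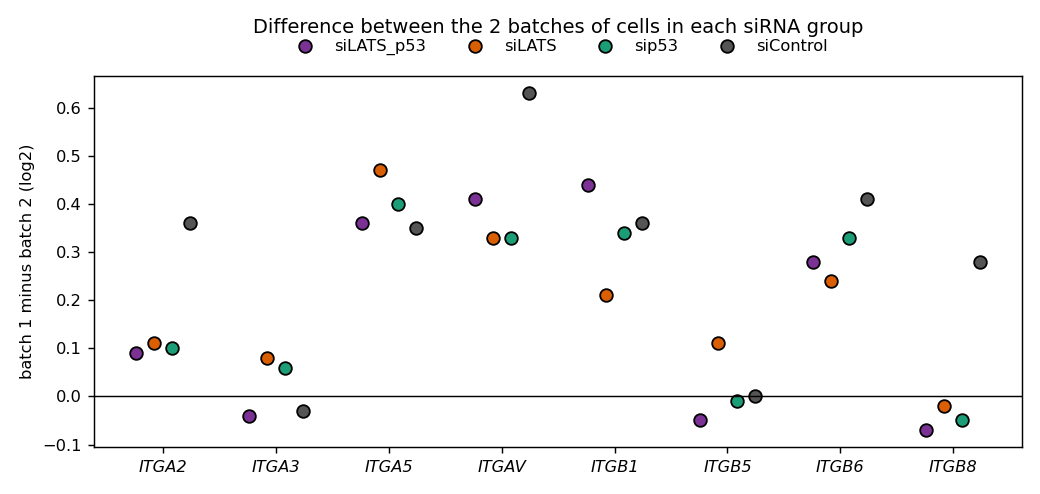
Difference of batch 1 minus batch 2 (log2, vertical axis) for each integrin gene, with 1 point per siRNA group. The points of ITGA5, ITGAV, ITGB1 and ITGB6 lie between 0.21 and 0.63, and those of ITGA3 and ITGB5 between -0.05 and 0.11.

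Of the 18 other integrin subunits listed, 8 were tested and 10 were at the lowest value in all libraries. ITGA10, another collagen-binding partner of beta-1, had a level of 7.97 and 7.70 in siLATS_p53, 7.59 and 6.74 in siLATS, 9.38 and 9.06 in sip53, and 9.47 and 8.59 in siControl. The 4 libraries with LATS siRNA lay below the 4 without it, and ITGA10 fell in siLATS against siControl (-1.86 ± 0.35, adjusted p = 0.026), a call kept in 4 of the 8 fits that leave out a library (largest adjusted p = 0.11). The subunits of the laminin receptor of hemidesmosomes, ITGA6 and ITGB4, fell in siLATS_p53 against siControl (-0.48 ± 0.12, adjusted p = 0.0344, and -0.80 ± 0.20, adjusted p = 0.0353), calls kept in 0 and 3 of those 8 fits. Another collagen-binding subunit, ITGA1, had 11.12 and 10.34 in siLATS_p53, 11.11 and 10.54 in siLATS, 10.61 and 10.01 in sip53, and 10.65 and 9.89 in siControl. It was higher after LATS siRNA within each batch, where ITGA2 and ITGA10 were lower (siLATS against siControl 0.55 ± 0.36, adjusted p = 0.396; 0.000228 in the blocked fit). ITGB2, the beta subunit of leukocyte integrins, had 8.75 and 8.19 in siLATS_p53, 9.08 and 8.51 in siLATS, 7.38 and 6.42 in sip53, and 7.54 and 7.41 in siControl, with the 4 libraries given LATS siRNA above the other 4 (siLATS against siControl 1.32 ± 0.35, adjusted p = 0.0625; 5.18e-05 in the blocked fit). ITGA1 and ITGB2 were named after their values were seen, and the part of DCN-expressing or blood cells in them was not tested; PTPRC, CD3E and HBB were at the lowest value in all libraries.

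Counted over these 8 subunits, limma called 1 fall in siLATS and 2 falls in siLATS_p53 against siControl. In the remaining 3 comparisons it called 0, with an unadjusted p under 0.05 for 1 in sip53 against siControl, 2 in siLATS_p53 against siLATS and 3 in siLATS_p53 against sip53. Of all tested genes, 21.4%, 33.2% and 18% had an unadjusted p under 0.05 in these comparisons. In the blocked fit the rises and falls of these subunits were 2 and 1 in siLATS, 0 and 2 in sip53, and 2 and 3 in siLATS_p53, each against siControl, 1 and 2 in siLATS_p53 against siLATS, and 2 and 2 in siLATS_p53 against sip53. For these subunits and the lists below, the shares of all tested genes called were those given above with the 8 members.

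Of 26 listed matrix ligands of these receptors, 18 were tested. The list was chosen with earlier results of these data known, so that its counts describe the listed genes and do not test a direction. In siLATS against siControl 6 rose and 0 fell, in sip53 against siControl 1 rose and 5 fell, and in siLATS_p53 against siControl 5 rose and 5 fell. In siLATS_p53 against siLATS 1 rose and 6 fell, and in siLATS_p53 against sip53 5 rose and 0 fell. In the same order, 2.81%, 1.76%, 9.07%, 11.3% and 2.54% of all tested genes were called higher. Those called lower were 4.89%, 2.1%, 5.48%, 3.22% and 1.12%. In the blocked fit the rises and falls of the ligands were 9 and 3 in siLATS, 2 and 9 in sip53, and 6 and 5 in siLATS_p53, each against siControl, 3 and 10 in siLATS_p53 against siLATS, and 9 and 2 in siLATS_p53 against sip53. Against siControl, the median log2 difference of the list was -0.02 in siLATS_p53, 0.21 in siLATS and -0.36 in sip53, beside the medians over all tested genes given above.

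CTGF and CYR61, matricellular ligands of beta-1 and alpha-V integrins and well-known YAP targets, went opposite ways with the 2 kinds of siRNA. CTGF had a level of 8.33 and 8.47 in siLATS_p53, 9.59 and 9.57 in siLATS, 7.20 and 6.98 in sip53, and 8.46 and 8.45 in siControl. It rose in siLATS (1.12 ± 0.13, adjusted p = 0.00542) and fell in sip53 (-1.36 ± 0.13, adjusted p = 0.00621) against siControl, and siLATS_p53 lay next to siControl (-0.05 ± 0.13, adjusted p = 0.819). CYR61 had 10.56 and 10.39 in siLATS_p53, 11.52 and 11.33 in siLATS, 9.34 and 9.08 in sip53, and 10.51 and 10.39 in siControl, with siLATS highest, sip53 lowest, and siLATS_p53 and siControl overlapping, as for CTGF. Among the 8 integrin genes, ITGA3 also had siLATS highest and sip53 lowest.

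COL4A2, a collagen IV chain gene, was higher in every comparison, with 13.69 and 13.88 in siLATS_p53, 13.15 and 13.05 in siLATS, 12.99 and 13.0 in sip53, and 12.28 and 12.33 in siControl, the reverse of the order of ITGA2. It rose by 1.48 ± 0.09 in siLATS_p53 (adjusted p = 0.000664), by 0.79 ± 0.09 in siLATS (0.00546) and by 0.69 ± 0.09 in sip53 (0.0163) against siControl, calls kept in 8, 7 and 4 of the 8 fits that leave out a library. The gene of its partner chain, COL4A1, had log2 differences of -0.14 to 0.06 in the 5 comparisons and did not pass. THBS1, a matrix glycoprotein that binds several integrins, and FBN1, an RGD-bearing fibrillin, rose in siLATS against siControl by 1.84 ± 0.15 and 1.72 ± 0.14 (adjusted p = 0.0018 for each), and passed whichever library was left out. LAMA3 and LAMB3 fell in sip53 against siControl, with log2 differences of -0.86 ± 0.17 and -0.93 ± 0.18 (adjusted p = 0.0419 and adjusted p = 0.0402), where ITGA3 did not pass without the block.

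Of the partners of latent TGF-beta, which alpha-V beta-6 and alpha-V beta-8 bind, 7 of 8 were tested. LTBP1, which tethers latent TGF-beta to the matrix, had a level of 11.45 and 11.46 in siLATS_p53, 11.73 and 11.77 in siLATS, 12.22 and 12.25 in sip53, and 12.69 and 12.60 in siControl, the same order of groups as ITGA2. Its log2 differences from siControl were -1.19 ± 0.07 in siLATS_p53 (adjusted p = 0.000664), -0.90 ± 0.07 in siLATS (0.00184) and -0.41 ± 0.07 in sip53 (0.035), and the last call was lost whichever library was left out (adjusted p from 0.0566 to 0.233). TGFB2, a TGF-beta isoform whose latency peptide lacks the RGD site, rose in siLATS against siControl (0.92 ± 0.17, adjusted p = 0.0228) and fell in siLATS_p53 against siLATS (-0.76 ± 0.17, adjusted p = 0.0265), where ITGB8 fell and rose. Each of these TGFB2 calls was kept in 4 of the 8 fits that leave out a library. Over the list 1 rose and 1 fell in siLATS, 0 and 1 in sip53, and 1 and 1 in siLATS_p53, each against siControl, 0 and 2 in siLATS_p53 against siLATS, and 0 and 1 in siLATS_p53 against sip53. In the blocked fit these were 1 and 3, 1 and 2, 2 and 3, 2 and 2, and 2 and 1.

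Of 31 adaptors that link integrins to actin, 29 were tested and most did not pass. In siLATS against siControl 0 rose and 2 fell, namely FERMT1, the epithelial kindlin that activates integrins (-0.92 ± 0.19, adjusted p = 0.0321), and LIMS1, a partner of integrin-linked kinase (-0.63 ± 0.15, adjusted p = 0.0464), each kept in 2 of the 8 fits that leave out a library. In sip53 against siControl 0 rose and 2 fell, the kindlin gene FERMT2 (-0.76 ± 0.13, adjusted p = 0.0302) and CRK (-0.45 ± 0.09, adjusted p = 0.0419), both kept in 0 of those fits. In siLATS_p53 against siControl 3 rose, among them the tensin gene TNS3 (0.61 ± 0.12, adjusted p = 0.0157) and GIT1 (0.49 ± 0.11, adjusted p = 0.0297), and 2 fell, FERMT1 (-0.99 ± 0.19, adjusted p = 0.0156) and FERMT2 (-0.63 ± 0.13, adjusted p = 0.0187), these 4 kept in 5, 3, 5 and 4 fits. In siLATS_p53 against siLATS 2 rose and 1 fell. In siLATS_p53 against sip53 limma called 0 of 29, with 10 at an unadjusted p under 0.05, beside 18% of all tested genes. In the blocked fit 10 adaptors rose and 2 fell there, with 12.7% of all genes called higher and 9.42% lower. The blocked fit gave 5 rises and 7 falls in siLATS, 2 and 8 in sip53, and 6 and 4 in siLATS_p53, each against siControl, and 6 and 5 in siLATS_p53 against siLATS.

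Of 8 tested genes of integrin inactivation and traffic, ARF6 (-0.42 ± 0.10, adjusted p = 0.0429) and SNX17 (-0.45 ± 0.10, adjusted p = 0.0462), which recycle beta-1 integrins, fell in siLATS against siControl. ITGB1BP1, whose product binds the beta-1 tail, rose in siLATS_p53 against siLATS (0.37 ± 0.09, adjusted p = 0.0349). Among 13 tetraspanins and lateral partners, PLAUR, the urokinase receptor that associates with integrins, rose in siLATS_p53 by 1.15 ± 0.09 (adjusted p = 0.00107), in siLATS by 0.43 ± 0.09 (0.0343) and in sip53 by 0.56 ± 0.09 (0.0274) against siControl. The syndecan gene SDC1 fell in siLATS (-0.58 ± 0.10, adjusted p = 0.0181), and SDC4, the syndecan that works with alpha-5 beta-1 on fibronectin, fell in sip53 (-0.52 ± 0.08, adjusted p = 0.0241), both against siControl. In the 8 fits that leave out a library ARF6, SNX17 and ITGB1BP1 were kept in 2, 0 and 2, PLAUR in 8, 2 and 2, SDC1 in 4 and SDC4 in 2. The rises and falls of the traffic list in the 5 comparisons, in the order used for the adaptors with siLATS_p53 against sip53 last, were 0 and 2, 0 and 0, 0 and 1, 1 and 0, and 0 and 0, and in the blocked fit 0 and 2, 0 and 2, 0 and 1, 2 and 1, and 1 and 0. Where limma called 0, 3 genes in sip53 against siControl and 1 in siLATS_p53 against sip53 had an unadjusted p under 0.05. Over all tested genes these shares were 21.4% and 18%. SDC1 and SDC4 also fell in siLATS_p53 against siControl (-0.49 ± 0.10, adjusted p = 0.0183, and -0.52 ± 0.08, adjusted p = 0.00781). SDC4 fell in siLATS_p53 against siLATS as well (-0.43 ± 0.08, adjusted p = 0.0153). The rises and falls of the tetraspanins and lateral partners were 1 and 1, 1 and 1, 1 and 2, 1 and 1, and 1 and 0, and in the blocked fit 3 and 2, 3 and 3, 5 and 2, 5 and 2, and 3 and 2. Of the 58 calls that the naming rule gave over all lists, basal markers included, 13 passed whichever library was left out and 5 passed in no such fit. All 58 had the same direction in every such fit, which carries little weight because differences called for their size rarely change sign.

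**Figure D4:**
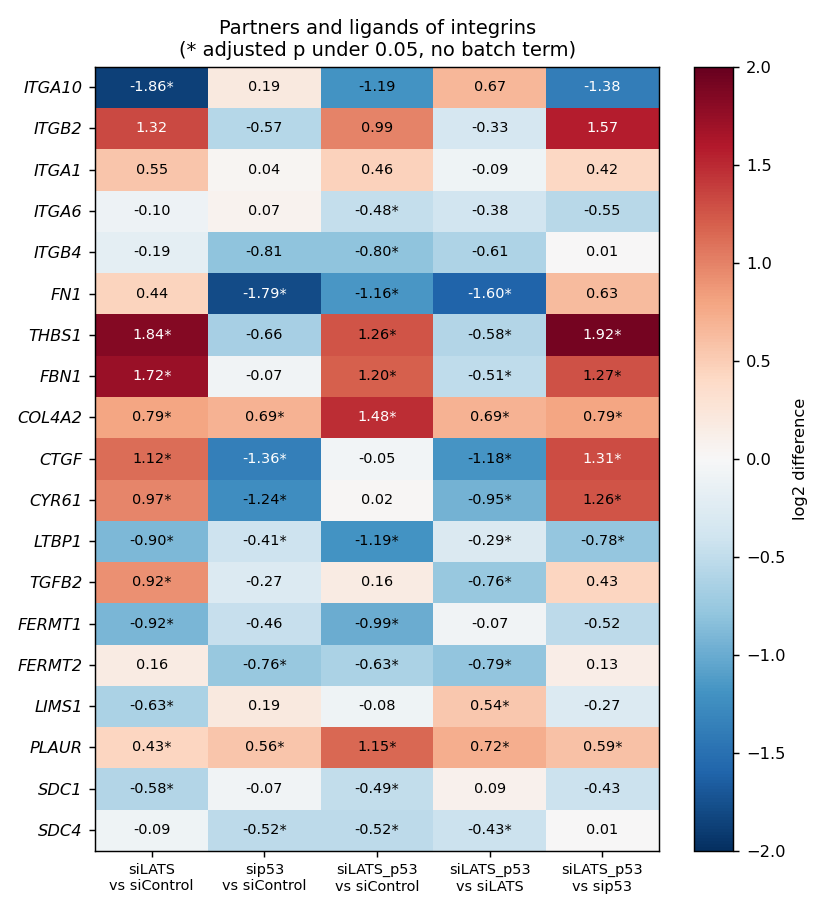
Log2 differences of 19 integrin partners, ligands and related subunits (rows) in 5 comparisons (columns), printed in each cell with the colour scale at the right; asterisks mark an adjusted p under 0.05 in the fit without a batch term. COL4A2 and PLAUR are above 0 and LTBP1 is below 0 in all 5 columns, and FN1 is lowest where p53 siRNA was added.

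Across the 8 libraries, which share siRNA groups and batches, the levels of ITGAV and ITGB1 had a Pearson r of 0.958, those of ITGAV and ITGB6 of 0.887, and those of ITGA3 and ITGB8 of -0.963. Among 6115 other entries above the median level, the profile most like that of ITGA2 over the 8 libraries was ANTXR2 (r = 0.987), which encodes an anthrax toxin receptor with an integrin-like domain, followed by the proteoglycan gene VCAN (0.983). The profiles most like that of ITGB8 were CEP57 (0.991) and NUP43 (0.984), and those most like ITGA5 were TMTC1 (0.993) and ZNF451 (0.984). For ITGA3 they were MSRB3 (0.983) and the cyclin gene CCND2 (0.978), and for ITGB5 the anchoring fibril collagen gene COL7A1 (0.944) and C9orf167 (0.939). SPPL2A was among the nearest for both ITGB1 (0.98, with WDR26 at 0.98) and ITGAV (0.974, with EDEM1 at 0.974), and SLC30A1 (0.937) was the nearest entry with a gene symbol for ITGB6. These are the highest of 6115 values each and are given as a description.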

How the data were processed

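RNA with poly(A) tails from 8 MCF10A cultures was sequenced, 2 per siRNA group. Libraries were made with a TruSeq kit that does not keep strand and were multiplexed on a lane, per the labels' protocols. TopHat and hg19 are named, without versions, per the submitters' processing notes; the counter, annotation and scaling are not stated there or in the labels. The deposited values are log2 expression levels, none below 5 (32 on the linear scale), which understates changes of low genes. In 8 of 8 libraries the per-library file matched the series table. Depth was not given. The best-fitting spacing of low linear values would put depth at 11.3 to 37.1 M reads. Only 16.8% to 28.1% of those values were within 0.05 of a whole multiple of it, so no counts were recovered and no count test was run.

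The test was limma 3.58.1 (R 4.3.3) with an intensity trend on the deposited log2 values, without a pseudocount, in a single model of the 4 groups. The 12315 of 29991 entries that exceeded 5 in 2 or more libraries were tested, with Benjamini-Hochberg adjustment across all of them; calls have an adjusted p under 0.05. Values after ± are SE. Calls credited to limma without mention of the block are those of this unblocked model. There were 6 comparisons, including the interaction. Per the labels the replicate number marks a batch of cells, and the deviations of same-numbered libraries from their group means correlated at 0.565 to 0.726 between groups. A blocked fit with a batch term is therefore printed for the members where it changes a call. For the lists of other subunits, ligands and partners it is printed as counts in the 5 comparisons, and for single list genes and cell markers only in part. The members and lists were chosen with earlier results of these data known. Named list genes are up to 4 called genes with the smallest p per list and comparison. LAMA3 and LAMB3 in siLATS and sip53, COL4A1, VTN, ITGA1 and ITGB2 fall outside that rule and were chosen after their values were seen. Profiles most like a member's are the 2 with the highest Pearson r among entries above the median level. Results for some genes, the target of the p53 siRNA among them, are not reported here. The unblocked fit of siLATS against siControl was tested on simulated data with independent noise and no shared batch deviations. The blocked fit was not tested in this way. The values were recomputed with other filters, after rescaling by medians of ratios, with a pseudocount of 32, in the blocked fit, in the compared groups alone, and with each library left out in turn, where a lone library takes the spread of the other groups.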

Additional observations from a re-analysis of the deposited data

Results flagged for a closer look

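ITGB6 had a response to LATS siRNA that differed between cells with and without p53 siRNA in the blocked fit. The interaction was 0.55 ± 0.26 on the log2 scale (adjusted p = 0.749) and passed in the blocked fit (adjusted p = 0.0251). In both batches the effect was above 0 in siLATS_p53 against sip53 (0.28 and 0.34) and below 0 in siLATS against siControl (-0.33 and -0.15). After rescaling by medians of ratios the blocked fit gave 0.45 (adjusted p = 0.0736), and the within-batch effects were 0.25 and 0.34 in siLATS_p53 against sip53 and -0.25 and -0.06 in siLATS against siControl.

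ITGA5 had effects of p53 siRNA of opposite sign in both batches. They were 0.11 and 0.22 in siLATS_p53 against siLATS and -0.15 and -0.20 in sip53 against siControl. The interaction was 0.34 ± 0.31 (adjusted p = 0.848; 0.0729 in the blocked fit), so this difference did not pass in either fit. The opposite signs depended on the scaling: after rescaling by medians of ratios the effects were -0.07 and 0.09 in siLATS_p53 against siLATS and -0.23 and -0.25 in sip53 against siControl.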

How the results depend on the processing

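Precision is limited by 2 libraries per group and 1 cell line. With the batch as a replicate block the genes called numbered 3937 in place of 948 in siLATS against siControl, 3199 in place of 475 in sip53 against siControl, 4832 in place of 1792 in siLATS_p53 against siControl, 5361 in place of 1791 in siLATS_p53 against siLATS, 2720 in place of 451 in siLATS_p53 against sip53, and 250 in place of 0 for the interaction. In the same order the integrin genes called were 5, 5, 5, 5, 4 and 1, in place of 3, 0, 1, 2, 1 and 0. The block with rescaling by medians of ratios gave 3449, 3021, 4685, 4194, 2789 and 81 genes, and 4, 6, 5, 5, 4 and 0 integrin genes. The block ended no call of an integrin gene. Fitting the compared groups alone gave 212, 12, 859, 1088 and 176 genes in the 5 comparisons; 0 integrin genes passed in siLATS against siControl (ITGA2 adjusted p = 0.0644, ITGA3 0.111, ITGB8 0.0933) and 1 in siLATS_p53 against siLATS (ITGA3 0.0673).

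Leaving out a library gave 84 to 759 genes in siLATS against siControl, 23 to 186 in sip53 against siControl, 626 to 1350 in siLATS_p53 against siControl, 34 to 1896 in siLATS_p53 against siLATS, 74 to 424 in siLATS_p53 against sip53 and 0 for the interaction. The integrin genes called ran from 0 to 3, 0 to 0, 1 to 1, 0 to 3, 0 to 1 and 0 to 0. Among integrin genes, 24 such values lost a call, 2 gained one and 330 did neither, and 28 changed sign, all of them of differences that had not passed.

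Rescaling changed the sign of 7 integrin differences, none called: ITGB1 in siLATS against siControl (0.05), ITGA3 (-0.01) and ITGB8 (-0.07) in siLATS_p53 against siControl, ITGB5 in siLATS_p53 against siLATS (-0.11), ITGAV in siLATS_p53 against sip53 (-0.01), and the interactions of ITGA2 (-0.01) and ITGB5 (-0.05), with the block or without. A pseudocount of 32 turned ITGB8 in siLATS_p53 against siControl to 0.0 with the other sign. Those that changed sign with a library left out ranged, in siLATS against siControl, over -0.46 to 0.17 (ITGAV) and -0.21 to 0.14 (ITGB1); in sip53 against siControl, over -0.01 to 0.0 (ITGB5) and -0.38 to 0.02 (ITGA5); in siLATS_p53 against siControl, over -0.14 to 0.14 (ITGB8); in siLATS_p53 against siLATS, over -0.17 to 0.11 (ITGB6), -0.07 to 0.4 (ITGA5) and -0.01 to 0.1 (ITGB5); in siLATS_p53 against sip53, over -0.4 to 0.0 (ITGA5), -0.33 to 0.11 (ITGB1) and -0.2 to 0.21 (ITGAV). For the interaction they were -0.1 to 0.26 (ITGA2), -0.17 to 0.46 (ITGAV), -0.3 to 0.15 (ITGB1) and -0.01 to 0.1 (ITGB5). The cause was not tested.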
